A study of Mus musculus with 34 samples.

Results

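A set of 7 carriers by which hepatocytes take up bile acids and other organic anions from sinusoidal blood were followed in the livers of mice after partial hepatectomy (PHx). They were taken by name as a group of carriers, and are Slc10a1 (ENSMUSG00000021135), Slco1b2 (ENSMUSG00000030236), Slco1a1 (ENSMUSG00000041698), Slco1a4 (ENSMUSG00000030237), Slco2b1 (ENSMUSG00000030737), Slco2a1 (ENSMUSG00000032548) and Slc22a7 (ENSMUSG00000067144). All 7 are among the 78298 genes of the deposited table, and all 7 were among the 14980 genes with enough reads to be tested. Bulk RNA-seq was done on whole liver of SIRTintKO mice, in which Sirt1 was deleted by a Villin-driven Cre, which acts in intestinal epithelium rather than in hepatocytes, and of littermates with floxed Sirt1 and no Cre, called WT. All were young adult male mice on a C57/Bl6 background. The 0 h livers came from untreated mice, and the 6 h and 24 h livers were taken after the median and the left lateral lobe had been resected. There were 6 WT livers at 0 h, 6 at 6 h and 4 at 24 h, and 6, 5 and 7 SIRTintKO livers at these times, so 34 libraries in all. The question was how far transcripts of the uptake carriers moved after PHx and whether they differed between the genotypes.

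Hepatocytes draw bile acids from portal blood across the sinusoidal membrane and return them to bile across the canalicular membrane. Slc10a1 encodes NTCP, the sodium-dependent carrier of conjugated bile acids. Slco1b2, Slco1a1, Slco1a4 and Slco2b1 encode sodium-independent organic anion transporting polypeptides (OATPs), which take up unconjugated bile acids, bilirubin, hormone conjugates and drugs. Slc22a7 encodes OAT2, an organic anion carrier. Slco2a1 encodes a prostaglandin carrier that is also expressed by endothelium. Transcription of several of these genes in liver is known to depend on hepatocyte factors such as HNF4A, and Slco1a1 is known to be higher in male than in female mouse liver under growth hormone acting through STAT5.

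Slco1b2, Slco1a4 and Slco1a1 lie near each other on chromosome 6 in RefSeq (GRCm38.p6), where 1 other protein-coding gene, Gm5724, separates Slco1b2 from Slco1a4, and Slco1a1 follows Slco1a4 directly. The 150 bases before their RefSeq starts are shown, together with those before both RefSeq starts of Slc10a1. They were chosen because Slco1a4 differed in direction from these neighbors at 24 h in SIRTintKO livers. Capitals mark matches, on either strand, to AGGTCA (a nuclear receptor half-site), TTCNNNGAA (a STAT motif) and TGTTTGC (a FOXA motif). Each is written 5′ to 3′ on the gene's own strand.
Slco1b2, chr6:141629368-141629517, plus strand: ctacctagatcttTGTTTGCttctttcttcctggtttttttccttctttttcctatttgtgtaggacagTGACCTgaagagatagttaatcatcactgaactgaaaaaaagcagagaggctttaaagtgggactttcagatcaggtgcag
Slco1a4, chr6:141856221-141856370, minus strand: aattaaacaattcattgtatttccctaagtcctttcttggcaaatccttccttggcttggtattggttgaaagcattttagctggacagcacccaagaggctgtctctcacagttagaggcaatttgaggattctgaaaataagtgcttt
Slco1a1, chr6:141946963-141947112, minus strand: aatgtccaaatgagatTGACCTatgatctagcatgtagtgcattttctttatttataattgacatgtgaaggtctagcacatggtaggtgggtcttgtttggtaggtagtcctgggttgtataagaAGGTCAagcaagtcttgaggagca
Slc10a1, first start, chr12:80968706-80968855, minus strand: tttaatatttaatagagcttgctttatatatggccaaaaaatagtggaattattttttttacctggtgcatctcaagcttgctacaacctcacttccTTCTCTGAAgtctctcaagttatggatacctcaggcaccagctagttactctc
Slc10a1, second start, chr12:80968080-80968229, minus strand: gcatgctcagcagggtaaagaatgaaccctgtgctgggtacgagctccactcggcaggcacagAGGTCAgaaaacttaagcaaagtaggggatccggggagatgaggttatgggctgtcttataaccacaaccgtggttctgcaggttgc

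Over the 250 bases before the start, Slco1b2 held all 3 motifs. Slco1a1 held the nuclear receptor half-site at 2 places, and the second start of Slc10a1 held it at 1. The first start of Slc10a1 and 1 of the 3 starts of Slco2b1 held the STAT motif. Slco1a4 and Slco2a1 held none of these letters, and Slc22a7 had no entry in the table. Of all 32851 RefSeq promoters of this length, 14.02% held the nuclear receptor half-site, 7.02% the STAT motif and 4.3% the FOXA motif. These matches describe the letters only.

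The libraries held 14892122 to 23480492 counts each (median 16807340). Levels are given as CPM, the counts relative to library size after TMM scaling, and are compared for the same gene only, since they are not divided by gene length. On the first principal component of log2 CPM, which held 40.7% of the variance, WT 24 h replicates 1 and 2 lay at 86.2 and 95.9, whereas replicates 3 and 4 lay at -8 and -17.6. Of the 7 SIRTintKO 24 h livers, 6 lay between 49.7 and 80.3, and replicate 5 lay at 8.1, near the second WT pair. The WT 24 h results of members are therefore also given without one or the other WT pair, an alternative added after the data were seen. Log2 fold changes of other genes are given over all WT 24 h livers only. Hepatic Sirt1 was 11.8 ± 2.59 (SD, n = 6) CPM in WT and 11.6 ± 2.5 (SD, n = 6) in SIRTintKO livers at 0 h. The deletion is intestinal, so this does not check the genotype labels. In bulk liver, fewer cells of a type and less RNA per cell cannot be told apart. The 0 h libraries carry a number series of their own in the labels, so a difference in handling and the effect of PHx cannot be told apart.

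**Figure D1:**
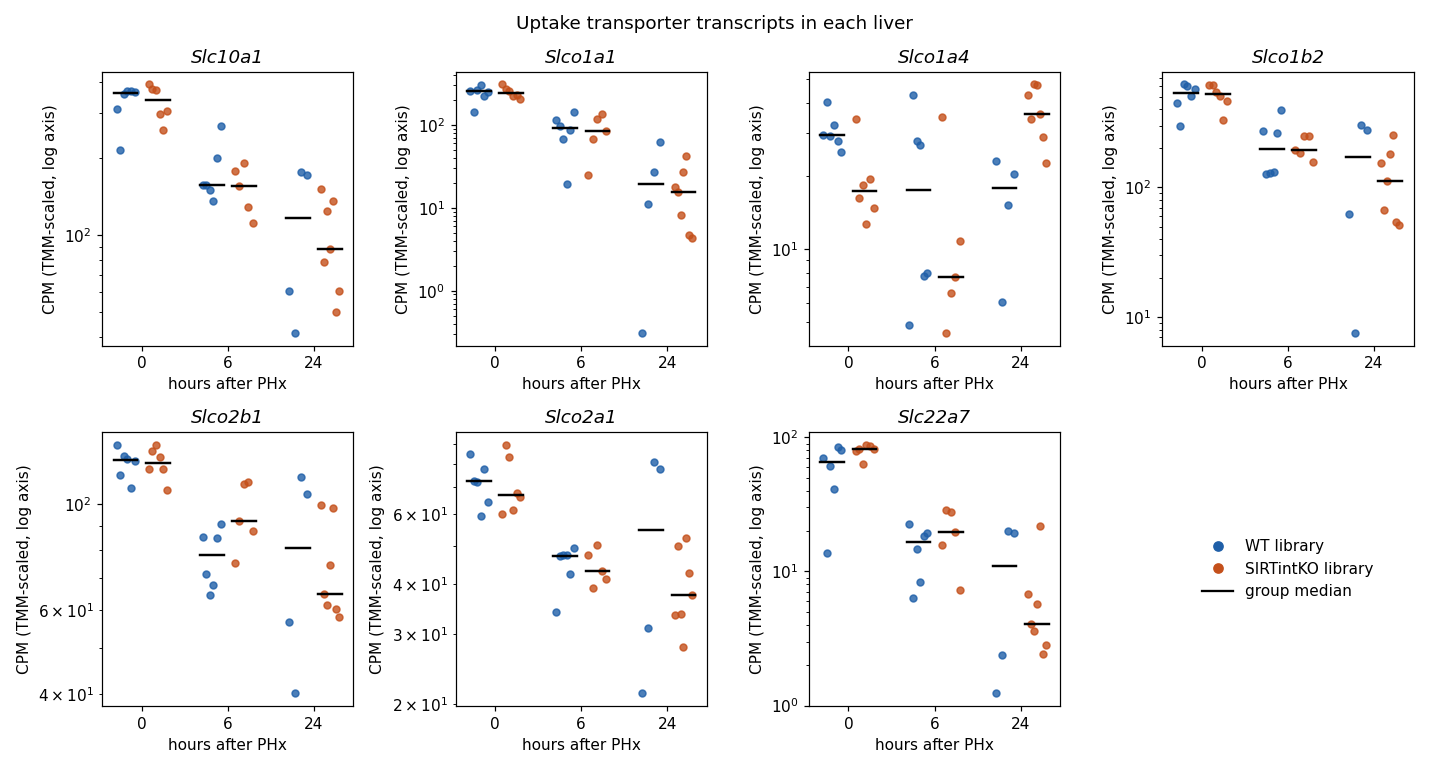
TMM-scaled CPM (log axis) of the 7 uptake transporter transcripts in each of the 34 livers, by hours after PHx and genotype, with group medians as bars. Slc10a1, Slco1a1, Slco1b2 and Slc22a7 lay lower at 24 h than at 0 h in both genotypes by median. Slco1a4 lay lower in WT and higher in SIRTintKO livers.

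Slc10a1, the main carrier of conjugated bile acids, fell after PHx in both genotypes. At 0 h it ranged from 216 to 368 CPM in WT livers, with a median of 359, and from 258 to 390 CPM in SIRTintKO livers, with a median of 339. At 6 h the WT livers ranged from 136 to 268 CPM, with a median of 157, and the 5 SIRTintKO livers had 178, 156, 192, 129 and 112 CPM. The WT ranges at 0 h and 6 h overlapped through 1 liver at each time, and those of SIRTintKO did not. In WT livers it was lower at 6 h by a log2 fold change of -0.89 (SE 0.279, n = 6 and 6, edgeR quasi-likelihood adjusted p = 0.0125), which passed the test but was less than 2-fold. In SIRTintKO livers the log2 fold change was -1.12 (± 0.297 SE, n = 5 and 6, adjusted p = 0.00356, edgeR).

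The 4 WT livers at 24 h had 60.5, 41.4, 177 and 173 CPM of Slc10a1, and the 7 SIRTintKO livers ranged from 50.1 to 152 CPM, with a median of 88.3. Every 24 h liver was below every 0 h liver of its genotype. The log2 fold change from 0 h was -1.55 in WT (± 0.327 SE, adjusted p = 0.000612, edgeR) and -1.76 in SIRTintKO livers (± 0.271 SE, adjusted p = 4.84e-06, edgeR). Without WT replicates 1 and 2 the WT change was -0.91 (adjusted p = 0.0953, edgeR), and without replicates 3 and 4 it was -2.68 (adjusted p = 1.04e-06, edgeR).

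Slco1b2, the liver-specific OATP, started from 299 to 623 CPM in WT livers (median 539) and from 332 to 617 CPM in SIRTintKO livers (median 524). At 6 h the WT livers had 126 to 394 CPM (median 196), and the SIRTintKO livers 193, 183, 250, 248 and 157 CPM. The SIRTintKO values at 6 h all lay under those at 0 h, whereas the WT values overlapped. The change at 6 h was -1.21 in WT on the log2 scale (± 0.475 SE, adjusted p = 0.0431, edgeR) and -1.32 in SIRTintKO livers (± 0.506 SE, adjusted p = 0.0388, edgeR). Both stood close to the threshold, and leaving out 1 library at a time gave adjusted p from 0.00689 to 0.0838 for WT and from 0.00593 to 0.074 for SIRTintKO (edgeR).

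The 4 WT livers of 24 h split into 62.3 and 7.54 CPM of Slco1b2 against 301 and 279 CPM. The SIRTintKO livers ranged from 51.4 to 252 CPM, with a median of 113, and none reached the lowest 0 h value of their genotype. The log2 fold change from 0 h was -2.04 in SIRTintKO livers (± 0.461 SE, adjusted p = 0.000529, edgeR) and -1.65 in WT (± 0.556 SE, adjusted p = 0.0217, edgeR). The WT value moved to -0.81 without replicates 1 and 2 (adjusted p = 0.366, edgeR) and to -3.86 without replicates 3 and 4 (adjusted p = 3.53e-05, edgeR). Leaving out replicate 1 or replicate 2 alone ended the call (adjusted p = 0.0905 and 0.0513, edgeR).

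Slco1a1, an OATP of male mouse liver, had the lowest log2 fold change of the 7 at 24 h in both genotypes. In SIRTintKO livers its value (-3.87, SE 0.6) was close to that of Slc22a7 (-3.57, SE 0.536), so their order is not settled. At 0 h the WT livers ranged from 143 to 301 CPM (median 252) and the SIRTintKO livers from 205 to 308 CPM (median 241). At 6 h they ranged from 19.6 to 142 CPM in WT (median 91.9) and were 24.8, 68, 119, 136 and 83.3 CPM in SIRTintKO livers. No 6 h liver reached the lowest 0 h liver of its genotype. On the log2 scale its change at 6 h was -1.43 in WT (± 0.579 SE, adjusted p = 0.0501, edgeR) and -1.53 in SIRTintKO livers (± 0.618 SE, adjusted p = 0.0497, edgeR), on either side of the threshold with almost the same size. Of the 34 fits without 1 library, 19 did not keep the SIRTintKO call.

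In WT livers at 24 h, Slco1a1 stood at 0.307, 11, 27.2 and 62.5 CPM, the first of these from 5 counts. The SIRTintKO livers ranged from 4.35 to 41.7 CPM, with a median of 15.3. The log2 fold change from 0 h was -3.23 in WT (± 0.732 SE, 9.41-fold, adjusted p = 0.00117, edgeR) and -3.87 in SIRTintKO livers (± 0.6 SE, 14.6-fold, adjusted p = 5.21e-06, edgeR). It was the only member called in WT at 24 h without replicates 1 and 2, at -2.41 (adjusted p = 0.0434, edgeR), and without replicates 3 and 4 it was -5.36 (adjusted p = 6.72e-05, edgeR). Leaving out WT replicate 4 alone gave -4.21. From 6 h to 24 h it fell further in SIRTintKO livers, by 2.34 on the log2 scale (± 0.585 SE, adjusted p = 0.00352, edgeR), and the WT value was -1.8 (± 0.682 SE, adjusted p = 0.0672, edgeR).

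Slc22a7, the organic anion carrier OAT2, fell at 6 h and was lower still at 24 h in SIRTintKO livers. The WT livers at 0 h had 13.7 to 84.1 CPM (median 65.6), where replicate 2 was the lowest and the others had at least 41.5 CPM. The SIRTintKO livers at 0 h lay closer together, from 63.4 to 88.4 CPM (median 82.3). At 6 h the WT livers had 6.34 to 22.5 CPM (median 16.6), and the SIRTintKO livers 15.8, 28.7, 27.6, 19.6 and 7.25 CPM. On the log2 scale it fell at 6 h by 1.97 in WT (± 0.533 SE, adjusted p = 0.00415, edgeR) and by 2.02 in SIRTintKO livers (± 0.567 SE, adjusted p = 0.00548, edgeR), about the same in both genotypes.

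By 24 h the WT livers had 1.23, 2.4, 20.2 and 19.4 CPM of Slc22a7. The SIRTintKO livers ranged from 2.44 to 21.9 CPM with a median of 4.04, and replicate 5 held the highest value. The change from 0 h was -2.43 in WT (± 0.633 SE, adjusted p = 0.00384, edgeR) and -3.57 in SIRTintKO livers (± 0.536 SE, adjusted p = 3.26e-06, edgeR). Without WT replicates 1 and 2 the WT change was -1.56 (adjusted p = 0.176, edgeR), and without replicates 3 and 4 it was -4.98 (adjusted p = 2.46e-05, edgeR). Between 6 h and 24 h it fell by 1.55 on the log2 scale in SIRTintKO livers (± 0.53 SE, adjusted p = 0.0283, edgeR). That call was lost in the fit of only the groups compared (adjusted p = 0.0508, edgeR) and in 7 of the 34 fits that left out 1 library (adjusted p up to 0.0747, edgeR). Without SIRTintKO 24 h replicate 5 the change of Slc22a7 was -2.24 from 6 h and -4.26 from 0 h.

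Slco2b1 and Slco2a1 moved by less than 2-fold in all 4 comparisons with 0 h. Slco2b1, an OATP found in many tissues, varied little at 0 h, with a coefficient of variation of 7.2% in WT and 7.51% in SIRTintKO livers. It had a median of 123 CPM at 0 h and 78 CPM at 6 h in WT livers, where the lowest 0 h liver (108 CPM) was above the highest 6 h liver (90.5 CPM). Its change at 6 h was -0.65 in WT (± 0.176 SE, adjusted p = 0.00407, edgeR) and -0.35 in SIRTintKO livers (± 0.185 SE, adjusted p = 0.13, edgeR). At 24 h the WT livers had 56.6, 40.1, 114 and 105 CPM and the SIRTintKO livers 58 to 99.4 CPM, with changes of -0.63 (± 0.2 SE, adjusted p = 0.0157, edgeR) and -0.72 (± 0.169 SE, adjusted p = 0.000759, edgeR). Without WT replicates 1 and 2 the WT change was -0.15 (adjusted p = 0.713, edgeR), and without replicates 3 and 4 it was -1.32 (adjusted p = 4.6e-06, edgeR).

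Slco2a1, the prostaglandin carrier, fell by 0.69 on the log2 scale at 6 h in WT (± 0.211 SE, adjusted p = 0.0104, edgeR) and by 0.69 in SIRTintKO livers (± 0.222 SE, adjusted p = 0.0143, edgeR). All 6 h livers, with at most 49.3 CPM in WT and 50.1 CPM in SIRTintKO, lay under the lowest 0 h livers, with 59.4 and 60 CPM. At 24 h the WT livers had 21.3, 31.1, 81.3 and 78.1 CPM, so that one pair lay under all 0 h livers and the other pair within their range. The WT change at 24 h was -0.44 (± 0.237 SE, adjusted p = 0.15, edgeR), and it was 0.15 without replicates 1 and 2 (adjusted p = 0.725, edgeR) and -1.44 without replicates 3 and 4 (adjusted p = 3.98e-06, edgeR). The SIRTintKO livers, at 27.9 to 52.2 CPM, fell by 0.85 (± 0.202 SE, adjusted p = 0.000892, edgeR). Of 10 markers of sinusoidal endothelium, 0 were called lower and 1 higher (Lyve1) at 6 h in WT and 3 lower in SIRTintKO livers, and their 24 h values are given with the other cell types. Of all genes, 8.4% and 8.7% were called lower at 6 h in WT and SIRTintKO livers, and 7.17% and 7.86% higher.

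Slco1a4, an OATP that also carries cardiac glycosides, differed from the others in direction only at 24 h in SIRTintKO livers. Its other changes from 0 h lay under 0, like those of the other members. At 0 h it ranged from 25 to 40.2 CPM in WT livers (median 29.3). In SIRTintKO livers it ranged from 12.7 to 34.3 CPM (median 17.3), with 5 of 6 livers at or under 19.5 CPM. At 6 h the livers of each genotype fell into low and high values. The WT livers had 4.89, 42.9, 27.8, 26.9, 7.77 and 7.94 CPM, and the SIRTintKO livers 34.8, 4.51, 6.6, 7.65 and 10.8 CPM. The 3 WT livers with the high Slco1a4 values, replicates 2, 3 and 4, had the 3 lowest values of Slco1b2 in their group, at 126, 129 and 132 CPM. This was not so in SIRTintKO livers, where replicate 1, with high Slco1a4, had the median Slco1b2 value of its group (193 CPM). The log2 fold change of Slco1a4 at 6 h was -0.63 in WT (± 0.428 SE, adjusted p = 0.257, edgeR) and -0.58 in SIRTintKO livers (± 0.457 SE, adjusted p = 0.325, edgeR). Without SIRTintKO 6 h replicate 1 the latter became -1.42 (adjusted p = 0.0122, edgeR), so 1 library decided that call.

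At 24 h Slco1a4 stood at 23.1, 6.06, 15.2 and 20.3 CPM in WT livers, under all WT livers at 0 h. The SIRTintKO livers had 43.2, 34.2, 47.6, 47.5, 35.9, 28.9 and 22.7 CPM, and 6 of the 7 lay above every WT 24 h liver. The log2 fold change from 0 h was -0.92 in WT (± 0.491 SE, adjusted p = 0.145, edgeR) and 0.94 in SIRTintKO livers (± 0.417 SE, adjusted p = 0.0593, edgeR), and neither passed. The WT value was -0.79 without replicates 1 and 2 and -1.07 without replicates 3 and 4. The SIRTintKO value passed without 0 h replicate 1 (1.19, adjusted p = 0.0277, edgeR) or without 24 h replicate 7 (1.03, adjusted p = 0.0492, edgeR). From 6 h to 24 h Slco1a4 rose in SIRTintKO livers by a log2 fold change of 1.53 (± 0.455 SE, 2.88-fold, adjusted p = 0.0129, edgeR). It was the only one of the 7 called higher in any comparison, and it remained called when any 1 library was left out, with log2 fold changes from 1.32 to 2.34. In WT livers the value between these times was -0.29 (± 0.484 SE, adjusted p = 0.729, edgeR).

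**Figure D2:**
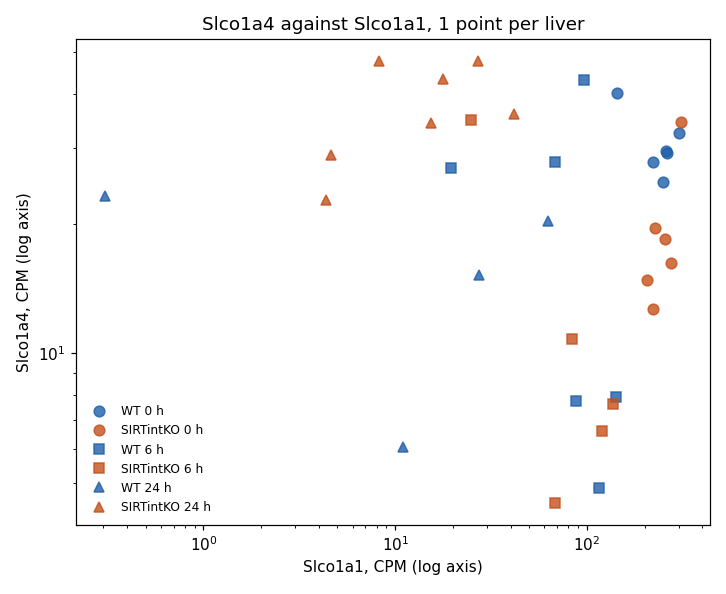
CPM of Slco1a4 against CPM of its neighbor Slco1a1 in each of the 34 livers, both on log axes, with color for genotype and marker shape for time. The SIRTintKO 24 h livers join low Slco1a1 (4.35 to 41.7 CPM) with high Slco1a4 (22.7 to 47.6 CPM), and 7 of the 11 livers at 6 h join Slco1a1 at or above 68 CPM with Slco1a4 at or under 10.8 CPM. Other livers go another way. WT 6 h replicates 2 and 3 join 96.8 and 68.2 CPM of Slco1a1 with 42.9 and 27.8 CPM of Slco1a4. At 0 h Slco1a1 is highest (143 to 301 CPM in WT, 205 to 308 in SIRTintKO), with Slco1a4 at 25 to 40.2 and 12.7 to 34.3 CPM.

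Over the 34 libraries, log2 CPM of Slco1a4 had a Pearson r of -0.16 with Slco1a1, 0.06 with Slco1b2 and 0.04 with Slc10a1. Slc10a1 and Slco1b2 had an r of 0.93, and Slco1b2 and Slco2b1 one of 0.92. As deviations from the group means these 2 pairs had an r of 0.87 and 0.89, so the livers of a group differed from each other in the same members. The libraries share their scaling and their time points, and these values are descriptions. Slco1a1, Slco1a4, Slco1a5 and Slco1a6 are similar in sequence, and how the estimated counts divided reads among them is uncertain. Few reads were assigned to the last 2, with Slco1a5 at 0 counts in every library of 5 of the 6 groups and Slco1a6 at 0 counts in all 0 h libraries.

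Of the 7 genes, 2 were called lower at 6 h in WT livers (Slco1b2 and Slc22a7) and 4 in SIRTintKO livers (these with Slc10a1 and Slco1a1), where called means an adjusted p under 0.05 and a log2 fold change over 1 in size. Over all genes tested 8.4% and 8.7% were called lower in these comparisons. At 24 h the same 4 genes, Slc10a1, Slco1a1, Slco1b2 and Slc22a7, were called lower in each genotype, beside 7.4% of all genes in WT and 11.1% in SIRTintKO livers. No member was called higher than at 0 h. Without WT 24 h replicates 1 and 2 the WT count at 24 h was 1 (Slco1a1), with 3.3% of all genes called in either direction. Without replicates 3 and 4 it was 6, with 30.6% of all genes called. By adjusted p alone, 5 and 5 members passed as lower at 6 h and 5 and 6 at 24 h, in WT and SIRTintKO livers, where 18.5% and 17.6% of all genes passed as lower at 6 h and 14.6% and 24% at 24 h. The median log2 fold change of the 7 was -0.89 and -1.12 at 6 h and -1.55 and -1.76 at 24 h, against medians over all genes of 0.02, 0.01, 0.02 and 0.04. The WT and SIRTintKO comparisons each use their own 0 h livers.

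Between 6 h and 24 h no member was called in WT livers, where 7.16% of all genes were. The edgeR fit gave 2 of the 7 members an unadjusted p under 0.05, beside 30.2% of all genes, and DESeq2 called 1 (Slco1a1). In SIRTintKO livers Slco1a1 and Slc22a7 were called lower and Slco1a4 higher, beside 3.91% and 6.7% of all genes in these directions.

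**Figure D3:**
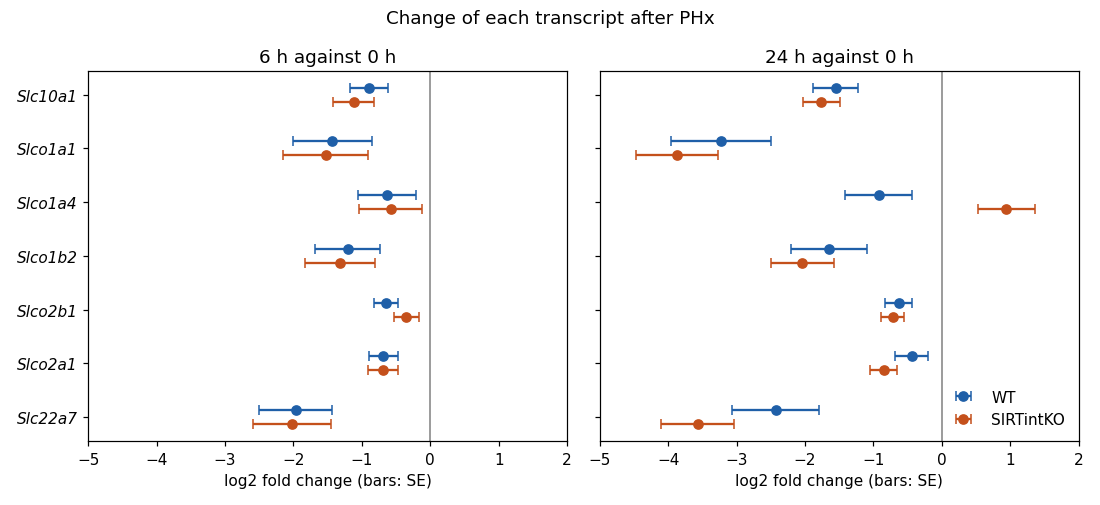
Log2 fold change from 0 h (bars: SE) of each member at 6 h and 24 h in WT and SIRTintKO livers. Of the 7 members, 6 lie under 0 in all 4 comparisons, with Slco1a1 lowest at 24 h (-3.23 and -3.87), and Slco1a4 lies on opposite sides of 0 at 24 h (-0.92 and 0.94).

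The genotypes were compared directly at each time. At 0 h no member was called and 0% of all genes were called (0 genes, and 0 by DESeq2 among the members). Log2 fold changes of SIRTintKO against WT ranged from -0.67 to 0.46 over the 7, and no member had an unadjusted p under 0.05. The lowest was Slco1a4, at -0.67 (± 0.429 SE, 95% interval -1.54 to 0.21, adjusted p = 1, edgeR). At 6 h the differences ranged from -0.62, again Slco1a4, to 0.41, with 0% of all genes called and no member under an unadjusted p of 0.05. The intervals allowed differences of over 2-fold for several members, so likeness of the genotypes is not shown.

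At 24 h 2.68% of all genes were called between genotypes and none of the 7, by edgeR or by DESeq2. Slco1a4 had the largest difference, at 1.2 (SE 0.485, 95% interval 0.21 to 2.19), with an unadjusted p of 0.019 and an edgeR adjusted p of 0.128. Of all genes 23.4% had an unadjusted p under 0.05. The other 6 lay between -0.68 (Slc22a7) and -0.1 (Slco2b1). For Slc10a1 the difference was -0.2, with a 95% interval from -0.81 to 0.41, and for Slco1b2 -0.38, with an interval from -1.41 to 0.64. The sign of these 6 depended on which WT pair was kept. Without WT replicates 1 and 2 all 6 were lower in SIRTintKO livers, from -0.57 to -1.55, with Slco2a1 (-1.01, adjusted p = 0.000528, edgeR) and Slco1b2 (-1.22, adjusted p = 0.04, edgeR) called, beside 9.22% of all genes. Without replicates 3 and 4 all 6 were higher, from 0.57 to 1.86, with Slco1b2 called (1.82, adjusted p = 0.0318, edgeR), beside 8.3% of all genes. Slco1a4 was higher in SIRTintKO livers by 1.06 and 1.33 in these fits and was called in neither (adjusted p = 0.233 and 0.162, edgeR).

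**Figure D4:**
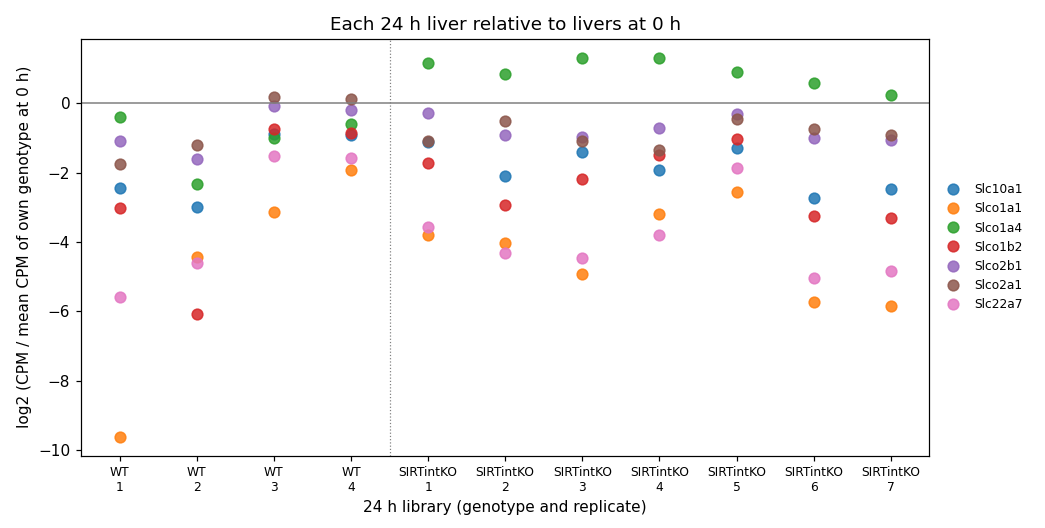
Log2 ratio of each 24 h liver's CPM to the mean CPM of its own genotype at 0 h, for the 7 members. WT replicates 1 and 2 lie lower than replicates 3 and 4 for every member except Slco1a4, and Slco1a4 lies above 0 in all 7 SIRTintKO livers and under 0 in all 4 WT livers.

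**Figure D5:**
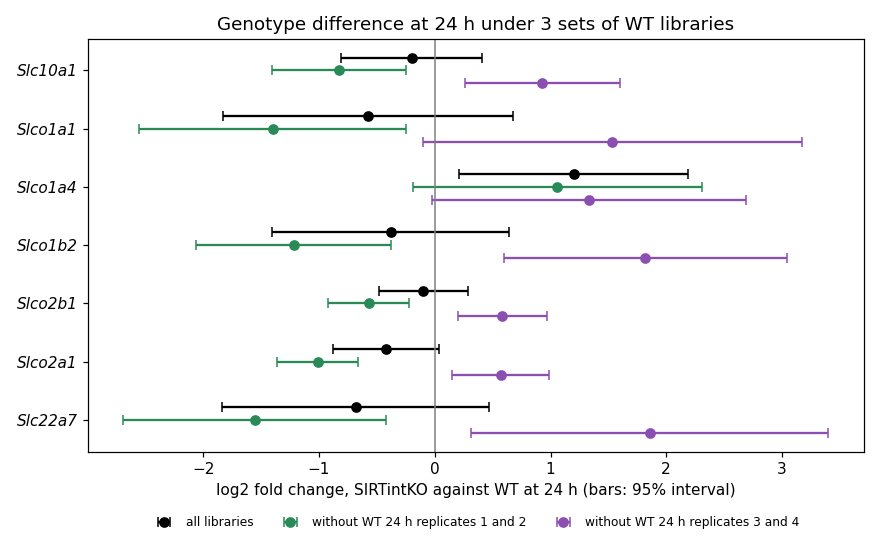
Log2 fold change of SIRTintKO against WT livers at 24 h (bars: 95% interval) with all libraries, without WT replicates 1 and 2, and without WT replicates 3 and 4. 6 members change sign with the WT pair left out, and Slco1a4 stays between 1.06 and 1.33.

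The change from 0 h was also compared between genotypes (interaction). At 6 h no member was called, with 0% of all genes called, and the values ranged from -0.23 to 0.3. At 24 h 0.00668% of all genes were called, which is 1 gene, and none was a member. Slco1a4 had an interaction of 1.87 (± 0.645 SE, unadjusted p of 0.00685, adjusted p = 0.228, edgeR), and it was the only member with an unadjusted p under 0.05, beside 12.7% of all genes. The other 6 ranged from -1.14 (Slc22a7) to -0.1 (Slco2b1). DESeq2 called no member in either interaction.

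Other members of the Slco, Slc10 and Slc22 families moved in both directions. Of 38 listed genes 17 were tested, and at 6 h 5 were called higher and 4 lower in WT livers and 5 higher and 2 lower in SIRTintKO livers. At 24 h the counts were 2 and 3 in WT and 4 and 4 in SIRTintKO livers. Of all genes tested, 7.17% in WT and 7.86% in SIRTintKO livers were called higher at 6 h, and 8.32% and 11.9% at 24 h. The shares called lower were 8.4% and 8.7% at 6 h and 7.4% and 11.1% at 24 h. These shares also serve as the background for the counts of the lists below. Slc22a5, the carnitine carrier OCTN2, went from 17.9 ± 1.63 (SD, n = 6) CPM to 149 ± 29.5 (SD, n = 6) at 6 h in WT, a log2 fold change of 3.05 (± 0.205 SE, adjusted p = 2.5e-12, edgeR), and was called in SIRTintKO livers as well (2.86, ± 0.208 SE, adjusted p = 1.65e-11, edgeR). Slc10a2, the sodium-dependent bile acid carrier of ileum and bile ducts, was also called higher at 6 h, at 1.01 in WT and 2 in SIRTintKO livers (adjusted p = 0.00827 and 1.2e-05, edgeR). Slc22a30, a relative of Slc22a7, fell at 24 h by 2.3 in WT and 3.65 in SIRTintKO livers (adjusted p = 0.00843 and 5.59e-06, edgeR).

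All 10 other basolateral carriers on the list were tested. At 24 h 2 were called higher and 2 lower in WT, and 1 higher and 5 lower in SIRTintKO livers, with median log2 fold changes of -0.8 and -1.07. Slc29a1, a nucleoside carrier, was called lower in all 4 comparisons with 0 h (-1.23, -1.51, -1.33 and -1.71 for WT and SIRTintKO at 6 h and then at 24 h). Slc27a2 and Slc27a5, which take up fatty acids or activate fatty and bile acids, were called lower at 24 h in SIRTintKO livers, by -1.35 and -1.5. In WT livers they passed the test at -0.95 and -0.97.

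Of 19 transcription factors and receptors linked to the uptake genes, none was called higher in any comparison with 0 h. At 6 h 6 were called lower in each genotype, and at 24 h 1 in WT and 5 in SIRTintKO livers. Ghr, the growth hormone receptor, was among them each time and went from 412 ± 44.3 (SD, n = 6) CPM to 104 ± 63.9 (SD, n = 4) in WT and from 401 ± 25.2 (SD, n = 6) to 66.6 ± 22.2 (SD, n = 7) in SIRTintKO livers at 24 h. Hnf4a did not pass in any of the 4, with log2 fold changes from -0.3 to 0.31. Nr1h4, which encodes the bile acid receptor FXR, was called lower at 24 h in SIRTintKO livers (-1.1, ± 0.256 SE, adjusted p = 0.000692, edgeR) and passed the test in WT livers (-0.88, adjusted p = 0.025, edgeR). Its target Nr0b2 (SHP), a repressor of bile acid synthesis genes, was called lower at 6 h in WT livers (-2.59, adjusted p = 0.000387, edgeR) and was -0.24 in SIRTintKO livers (adjusted p = 0.751, edgeR), with an edgeR adjusted p of 1 for the difference of these changes. The SIRTintKO livers at 6 h were split, from 3.88 to 99.4 CPM of Nr0b2. Their median of 10.4 CPM was near the WT median of 9.85 CPM at 6 h. Foxa2 was called lower in SIRTintKO livers at 6 h and 24 h (-1.41 and -1.46, adjusted p = 0.00913 and 0.00205, edgeR) and had -0.71 and 0.02 in WT, with an edgeR adjusted p of 1 and 0.274 for the differences of these changes. WT livers at 24 h ranged from 10.5 to 55 CPM of Foxa2, and SIRTintKO livers from 8.29 to 48.8 CPM. Nr1i3, which encodes the xenobiotic receptor CAR, was called lower at 6 h in WT (-1.07, adjusted p = 0.0461, edgeR) and in SIRTintKO livers (-1.59, adjusted p = 0.00652, edgeR). Cebpa, a hepatocyte transcription factor, was called lower in SIRTintKO livers at 6 h and 24 h (-1.09 and -1.91). In WT livers it passed at 6 h (-0.84, adjusted p = 0.0213, edgeR) and was -0.28 at 24 h (adjusted p = 0.528, edgeR), and the changes at 24 h did not differ past the threshold (-1.63, adjusted p = 0.121, edgeR). Cebpa was called lower than in WT at 24 h (-1.37, adjusted p = 0.0103, edgeR). The WT livers then ranged from 109 to 221 CPM and the SIRTintKO livers from 29.2 to 135 CPM. This difference was not examined without either WT pair.

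Of 8 genes of bile acid synthesis and conjugation, 3 and 4 were called lower at 6 h and 3 and 5 at 24 h in WT and SIRTintKO livers, and none higher. Cyp7a1, the rate-limiting enzyme of the classic pathway, had 23.7 ± 8.44 (SD, n = 6) CPM in WT livers at 0 h and 1.51 ± 2.12 (SD, n = 6) at 6 h, a log2 fold change of -3.94 (adjusted p = 0.0012, edgeR). In SIRTintKO livers its change at 6 h was -5.41 (adjusted p = 0.000265, edgeR). At 24 h Cyp7a1 was -1.73 in WT (adjusted p = 0.155, edgeR) and -5.21 in SIRTintKO livers (adjusted p = 2.98e-05, edgeR), and the difference of these changes was -3.49 (adjusted p = 0.24, edgeR). The WT livers at 24 h ranged from 0 to 15.2 CPM of Cyp7a1, and the SIRTintKO livers from 0 to 5.54 CPM. Of 11 efflux carriers 10 were tested, with 3 lower at 6 h in WT, 2 higher and 2 lower at 6 h in SIRTintKO, 2 higher and 3 lower at 24 h in WT, and 3 higher and 1 lower at 24 h in SIRTintKO livers. Abcb11, the canalicular bile salt export pump, was called lower at 6 h in WT (-1.31, adjusted p = 0.00011, edgeR), passed at -0.89 in SIRTintKO livers, and at 24 h was -0.74 and -0.35. Abcb4, which exports phospholipid into bile, had 152 ± 71.9 (SD, n = 4) CPM in WT and 434 ± 238 (SD, n = 7) in SIRTintKO livers at 24 h, a difference of 1.52 (± 0.353 SE, adjusted p = 0.0146, edgeR). The WT livers ranged from 77 to 249 CPM and the SIRTintKO livers from 216 to 895 CPM. The Abcb4 difference was not examined without either WT pair.

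Male-biased liver genes, listed because Slco1a1 is one of this kind, were called lower in 3 of 7 cases at 6 h and 6 of 7 at 24 h in each genotype, with a median of -2.02 in WT and -3.52 in SIRTintKO livers at 24 h. Selenbp2 and Elovl3 fell in each comparison with 0 h, with log2 fold changes from -2.1 to -6.13. Of 7 female-biased genes only Cyp17a1 was tested, and it was called higher in each of the 4 comparisons (2.4 to 4.25). Of 5 sex-linked transcripts 4 were tested and none was called.

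Cell type markers moved too, and their part in the changes of the carriers was not tested. The 7 matched of 8 hepatocyte markers were high in every library. They summed to 66800 to 77400 CPM in WT livers at 0 h and 33300 to 42900 at 24 h. In SIRTintKO livers their sum was 58500 to 83300 and 38500 to 71600 CPM at these times. Much of the sum was Alb, with a mean of 45100 CPM in WT livers at 0 h. Of the 7, 2 were called lower at 24 h in each genotype (Alb and Ttr in WT, Ttr and Ass1 in SIRTintKO livers). Of 10 markers of sinusoidal endothelium, 6 were called lower at 24 h in each genotype, and 1 was called higher in SIRTintKO livers (Lyve1). Their sum ranged from 213 to 321 CPM at 0 h and 66.2 to 181 at 24 h in WT, and from 238 to 352 and 99.1 to 203 in SIRTintKO livers. In the WT pair with low Slco2a1 it was 66.2 and 76.2, and in the other pair 181 and 142. Of 5 neutrophil markers tested, 2 in WT and 5 in SIRTintKO livers were called higher at 24 h, with sums of 6.97 to 102 and 22.1 to 935 CPM. In WT the first pair had 102 and 84.3 CPM and the second 13.4 and 6.97. Of 5 cholangiocyte markers tested 3 were called higher in each genotype, and in WT their sums were 483 and 264 against 64.7 and 78.9 CPM. Of 6 Kupffer cell markers, none was called at 6 h in WT, and 1 was higher (Marco) and 3 lower, Clec4f among them, in SIRTintKO livers. At 24 h 4 were called lower in WT, and 1 higher (Marco) and 1 lower (Clec4f) in SIRTintKO livers. Of 7 stellate cell and fibroblast markers, 1 was lower in WT and 2 were higher and 1 lower in SIRTintKO livers, and of 5 red blood cell markers 1 was lower in each and 1 higher in SIRTintKO livers. Ly6g was at 0 counts in all SIRTintKO 0 h libraries, and no other marker was at 0 throughout a group.

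The genes whose log2 CPM was most like each member over the 34 libraries were sought among 7305 other genes with a mean of at least 10 CPM. For Slc10a1 they were Hebp1, Gcdh and Bphl, with a Pearson r of 0.95, 0.95 and 0.94. For Slco1b2 they were Acsm5, Proz and Aqp9 (0.96, 0.95 and 0.95), and for Slco2b1 Sord, Galm and Acsm5 (0.95, 0.95 and 0.94). Slco1a1 was closest to Sult2a8, Cyp2c54 and Cyp2c37 (0.98, 0.97 and 0.97), with 0.96, 0.93 and 0.91 as deviations from the group means. Slc22a7 was closest to Akr1c20, Ugt3a1 and Ghr (0.94 each). Slco2a1 was closest to Zfp706, Hagh and Cyp7a1 (0.9, 0.9 and 0.89). Slco1a4 had no gene above 0.69 (Anxa6, Degs1 and Rab32, with 0.69, 0.68 and 0.67, and 0.49, 0.46 and 0.52 as deviations from the group means). These values are descriptions over libraries that share their time points.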

How the data were processed

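Whole-liver RNA of 34 mice was sequenced, and the labels call the libraries biological replicates. P-values weigh differences between group means against the spread between these libraries. The deposited values are expected counts per gene, which the authors estimated with Salmon, and the submitters' processing notes also name STAR and GRCm39. Of the values, 4.97% were not whole, and they were rounded before testing. In 1316 gene symbols a missing letter x was restored from the gene identifiers. Of 35 value columns, 1 matched no label and was not used.

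Counts were tested with edgeR 4.0.16 (R 4.3.3) by quasi-likelihood F tests over the 14980 genes kept by filterByExpr, with TMM factors from 0.74 to 1.42, all 6 groups in 1 fit and 11 comparisons, each adjusted by Benjamini-Hochberg over all genes. The SE is the log2 fold change divided by the square root of F. DESeq2 1.42.0, other scalings and filters, the fit of only the groups compared, a threshold test of 2-fold (glmTreat), a replicate block and leaving out each library were alternatives. Leaving out the WT 24 h libraries in pairs was added after the data were seen. The steps were also tested on simulated data.

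The members and gene lists were chosen with earlier results of these data known. Other genes described were drawn from the up to 3 of each list with the highest mean CPM among those called in a comparison with 0 h, and from Nr1h4, Nr0b2, Hnf4a, Foxa2, Cyp7a1 and Abcb11. Not all genes of this rule are described, and 1 is not reported here. Lyve1 and Ly6g were named after their values were seen. Sequences and gene order came from RefSeq (GRCm38.p6), where 6 of 7 members matched.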

Additional observations from a re-analysis of the deposited data

Results flagged for a closer look

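In a Dixon test of each member in each group, 3 of 42 tests passed the critical value, where chance gives about 1 in 20. Slco1a4 was 34.3 CPM in SIRTintKO 0 h replicate 1, against 12.7 to 19.5 CPM in the other 5 livers of the group. Slco1a4 was also 34.8 CPM in SIRTintKO 6 h replicate 1, against 4.51 to 10.8 CPM in the other 4 livers. These are different mice. Slc22a7 was 21.9 CPM in SIRTintKO 24 h replicate 5, against 2.44 to 6.74 CPM in the other 6 livers, and that liver also had the lowest neutrophil marker sum of its group, at 22.1 CPM.

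The change of Slco1a4 from 0 h to 24 h went in opposite directions in the genotypes, with an interaction of 1.87 on the log2 scale. All 4 WT livers at 24 h lay under the WT mean at 0 h, and all 7 SIRTintKO livers lay above the SIRTintKO mean at 0 h. The difference did not pass the correction over all genes (edgeR adjusted p = 0.228). It includes a difference at 0 h, where Slco1a4 was -0.67 in SIRTintKO against WT livers, beside 1.2 at 24 h. Neither was called.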

How the results depend on the processing

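Over 58 log2 fold changes of members, 2416 of 2544 alternative values kept both their direction and their call or lack of one. Among the rest 53 lost a call, 37 gained one and 38 changed sign. A call rests on adjusted p and size together, so either could move it. The 58 leave out the interactions at 6 h and, for all members but Slco1a4, the genotype differences at 0 h and 6 h. Several of those left out lay close to 0, such as 0.01 for Slc10a1 at 0 h. At 6 h in WT livers, against 2 members called, the number was 5 by adjusted p alone, 1 with every gene of at least 1 count, 0 by glmTreat, 4 with library size only and 1 (Slc22a7) with the replicate block, and 1 to 4 with 1 library left out. It was 1 when any single library among WT 0 h replicates 1, 3, 4, 5 and 6 or WT 6 h replicates 2, 3 and 4 was left out, and 4 without WT 6 h replicate 6. In SIRTintKO livers at 6 h it was 2 with every gene of at least 1 count, 0 by glmTreat and 2 to 4 with 1 library left out, with 2 without SIRTintKO 0 h replicate 1, 2 or 3 or 6 h replicate 2, 3 or 5. At 24 h in WT it was 1 by glmTreat, 1 without replicates 1 and 2 and 6 without replicates 3 and 4. Between 6 h and 24 h it was 0 by glmTreat in SIRTintKO livers, and in WT 1 by DESeq2, 4 without WT 24 h replicates 3 and 4, and 0 to 1 with 1 library left out (1 without WT 6 h replicate 4 or WT 24 h replicate 4). Between genotypes at 24 h it was 2 and 1 without the first and second WT pair. Replicate numbers did not pair the mice (76 pairs with the same number, correlations from -0.366 to 0.266, 10 over 0.1). With the replicate block Slco1a4 was called higher at 24 h than at 0 h in SIRTintKO livers (1.07, edgeR adjusted p = 0.0423), as by DESeq2 on adjusted p (0.95, adjusted p = 0.0415). The cause was not tested.

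Of the 38 sign changes, 14 came without WT 24 h replicates 3 and 4, 3 without replicates 1 and 2, 17 with 1 library left out, 3 with library size only and 1 with the replicate block. Without replicates 3 and 4, SIRTintKO against WT at 24 h was 0.93 for Slc10a1, 1.86 for Slc22a7, 1.53 for Slco1a1, 1.82 for Slco1b2, 0.57 for Slco2a1 and 0.58 for Slco2b1. The interactions at 24 h were then 0.91, 1.4, 1.47, 1.8, 0.57 and 0.58, and WT 24 h against 6 h was -0.73 for Slco2a1 and -0.65 for Slco2b1. Without replicates 1 and 2, WT 24 h against 6 h was 0.41 for Slc22a7 and 0.4 for Slco1b2, and WT 24 h against 0 h was 0.15 for Slco2a1. With library size only, which gave all genes a median of 0.27 on the log2 scale between 6 h and 24 h in SIRTintKO livers against -0.01 with TMM, that comparison was 0.12 for Slco2a1, and for Slco2b1 SIRTintKO against WT at 24 h was 0.01 and the interaction 0.04. With the replicate block, WT 24 h against 6 h was -0.02 for Slco2b1. With 1 library left out, the difference between genotypes at 24 h ranged from -0.47 to 0.09 for Slc10a1, -1 to 0.4 for Slco1a1, -0.78 to 0.09 for Slco1b2 and -0.31 to 0.12 for Slco2b1, and the interactions from -0.49 to 0.07, -1.06 to 0.34, -0.79 to 0.07 and -0.32 to 0.11. WT 24 h against 6 h ranged from -0.5 to 0.11 for Slco1a4, -0.01 to 0.53 for Slco2a1 and -0.18 to 0.26 for Slco2b1. The filter of at least 10 counts in every library left out Slco1a1. With 4 WT livers at 24 h in 2 unlike pairs, genotype differences of the carriers at 24 h were not settled by these libraries, and Slco1a1 in WT 24 h replicate 1 rested on 5 counts.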
